A study of Mus musculus with 12 samples.

Results

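The effect of Zbed6 silencing after 96 h was examined in the mouse myoblast line C2C12, whose cells fuse into myotubes. The comparison set the 3 arrays labelled ZBED6 siRNA 96h against the 3 labelled negative control siRNA 96h, 6 of the 12 arrays of the series, across every probe detected on at least 3 of the 12 arrays. Of 25697 probes, 13095 passed that filter, and they stood for 8858 of the 16593 genes on the array, each read from its brightest kept probe. All cells were unmodified C2C12 cells at passages within a stated range, reverse transfected in growth medium with fetal bovine serum, either with a pool of siRNAs against Zbed6 or with a pool of scrambled siRNAs, so the controls also carried siRNA and transfection reagent, and cultures without siRNA were not analysed here. The other 6 arrays were the same pair of conditions at 48 h. The labels call the triplicates biological, without saying whether they were separate transfections, so the p-values below measure the spread between these arrays.

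ZBED6 is a transcription factor of placental mammals, encoded by an intronless gene that derives from a DNA transposon and lies within an intron of Zc3h11a. Its best known target is Igf2, which encodes an insulin-like growth factor and which it represses through a site that carries the core GCTCG. IGF2 acts through the IGF1 receptor and drives the survival, growth and differentiation of myoblasts. When myoblasts differentiate they leave the cell cycle, switch on sarcomere proteins, calcium-release channels and muscle enzymes, and fuse.

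No probe was named for Zbed6, so the silencing itself was not measured on these arrays. Values are normalized log2 signals, and an array is said to detect a probe where its detection p was under 0.05. The probe for Zc3h11a, the host gene, read 5.82, 5.71 and 5.61 in the control replicates 1 to 3 and 5.41, 5.75 and 5.64 in the silenced ones. The groups overlapped, with a difference of -0.11 ± 0.11 (SE, n = 3 per group; adjusted p = 0.569, limma; exact two-sided permutation p = 0.5). Igf2 read 14.16, 14.10 and 14.19 in the controls and 14.69, 14.59 and 14.53 after silencing. Every silenced array was above every control array, with a difference of 0.45 ± 0.08 (1.37-fold; adjusted p = 0.0282, limma). The exact permutation p was 0.1, the smallest that 3 against 3 allows, and the call was lost with the replicate number as a block (adjusted p = 0.058, limma) and without any 1 array other than silenced replicate 3 (adjusted p = 0.0618 to 0.0914).

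The 6 arrays detected 12226 to 12496 probes each. Correlations over the kept probes were 0.993 to 0.9953 within the groups and 0.9862 to 0.9928 between them, and the leading component (49.4% of the variance) put the controls at -17.73 to -11.14 and the silenced arrays at 9.44 to 21.45, with the replicates numbered 1 at both ends. Among markers of the labelled cell type, Myod1, Des, Itga7, Chrna1 and Vim were detected on all 6 arrays, while Pax7 and Myf5, which mark satellite cells and early myoblasts, were detected on none. Of the markers of other cells on the array, 6 of 7 for leukocytes, 7 of 8 for endothelium, 4 of 6 for nerve and Schwann cells, 6 of 9 for adipocytes and 7 of 9 for bone and cartilage were detected on no array of 96 h. Of 6 epithelial markers only Krt5 and Krt18 were undetected throughout, and Krt8 and Krt14 were detected on all 6 arrays. Fibroblast markers were present, with 6 of 10 detected on all 6 arrays.

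At 96 h, 754 of the 13095 kept probes (5.76%) passed an adjusted p of 0.05 in the limma fit, 370 higher (2.83%) and 384 lower (2.93%). Read by gene, 501 passed, 5.66% of the 8858 tested. Of these, 251 were higher (2.83%) and 250 lower (2.82%) after silencing, and the median difference over all genes was 0.00454. The median size among the called genes was 0.54 on the log2 scale, 187 genes passed 1.5-fold and 23 passed 2-fold, 10 of them higher and 13 lower. All 501 had groups that did not overlap, as did 32.1% of all genes tested. The even split depended on the scaling, since scaling by the median in place of quantiles gave 289 higher and 179 lower. The sizes depended on the processing, more so for dim probes. With the values as the authors processed them, which differ in transformation and normalization as well as background, the 170 called genes named by the lists and rankings used here had a median of 0.439 times the difference given here, and 0.129 times for the 58 whose mean signal was under 7, so Padi2 stood at 0.17 in place of 1.29. Leaving out the background correction alone gave medians of 0.852 times and, for the 58, 0.585 times. The count also depended on single arrays, with 47 genes called without control replicate 1 and 310 without silenced replicate 3. Of these 170 genes, 20 passed the threshold under all 18 alternatives, left-out arrays included: Rnase6, Padi2, Tceal5, Upk1b, Ppm1e, Fgfrl1, Ephb1, Cxcl13 and Adamtsl2, all higher, and Klf6, Lbp, Slc1a3, Abat, Gpx3, Gulp1, Tmem176b, Igfbp4, Cp, Ccn5 and Car9, all lower.

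**Figure D1:**
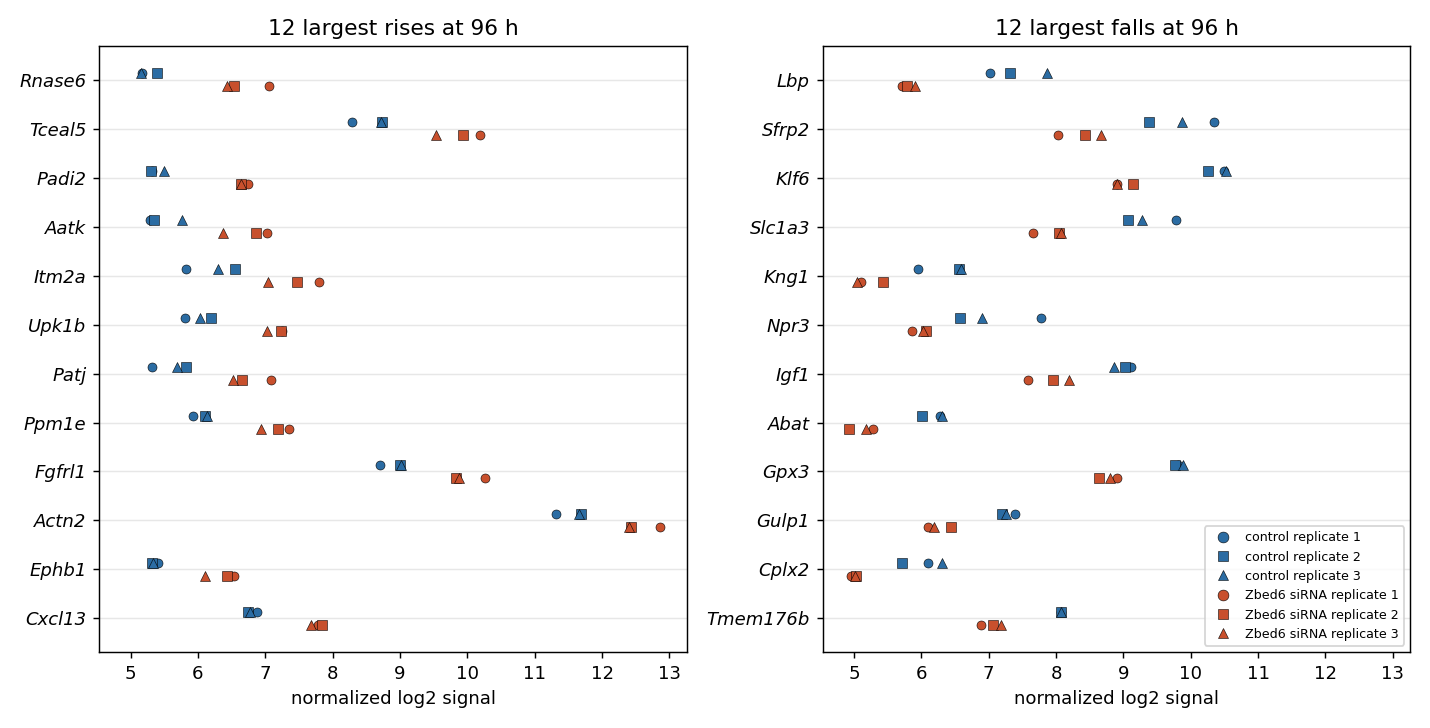
Normalized log2 signal on the 3 control arrays (blue) and the 3 Zbed6 siRNA arrays (red) of 96 h for the 12 largest rises (left) and 12 largest falls (right) among called genes; each point is 1 array and the shape gives its replicate number. The groups do not overlap for any of the 24 genes (Actn2, for example, reads 11.32 to 11.69 in the controls and 12.40 to 12.87 after silencing).

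The largest rise was that of Rnase6, which encodes a secreted ribonuclease with antimicrobial activity. Rnase6 read 5.17, 5.39 and 5.16 in the controls, where 1 of 3 arrays detected it, and 7.06, 6.53 and 6.43 after silencing, where all 3 did (difference 1.43 ± 0.16, adjusted p = 0.00781, limma). Padi2, a peptidylarginine deiminase that converts arginine in proteins to citrulline, read 5.32, 5.31 and 5.49 against 6.74, 6.63 and 6.63, and its arrays lay close together within each group (1.29 ± 0.09, adjusted p = 0.00207). Upk1b, a tetraspanin of the urothelium, differed by 1.16 ± 0.12 (adjusted p = 0.00503). Aatk, a neuronal kinase, and Patj, a scaffold of epithelial polarity complexes, also rose more than 2-fold (1.29 ± 0.19 and 1.15 ± 0.17).

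Klf6, a Krüppel-like transcription factor, read 10.50, 10.26 and 10.52 in the controls and 8.90, 9.14 and 8.90 after silencing (-1.45 ± 0.11, adjusted p = 0.00207). Its adjusted p was the lowest among the falls, and no other of the 12 measured genes on the list of Krüppel-like factors and Sp1 to Sp4 passed. Sp6, which is not on that list and was named after its value was seen, fell by 0.47 ± 0.11 (adjusted p = 0.0491). Lbp, the lipopolysaccharide-binding protein of serum, read 7.02, 7.32 and 7.86 against 5.71, 5.78 and 5.91 (-1.60 ± 0.19, adjusted p = 0.00782). Slc1a3, a glutamate and aspartate transporter, read 9.78, 9.06 and 9.28 against 7.66, 8.05 and 8.08 (-1.44 ± 0.19, adjusted p = 0.00939). Abat, the transaminase that degrades the transmitter GABA, fell by 1.07 ± 0.12 (adjusted p = 0.00782), and 1 of 3 silenced arrays still detected it. Cplx2, a synaptic vesicle protein, was detected on all control arrays and on no silenced array, which makes it at least 1.64-fold lower (adjusted p = 0.0117), a bound set against the lowest detected signal of each silenced array.

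Sarcomere genes held a larger share of rises than the array as a whole. Of 55 measured genes of the thick filament, thin filament and Z-disc, 15 rose, none fell, and 51 lay above 0, with a median difference of 0.33, against 2.83% of all genes higher and 51.1% above 0. At 48 h, 4 of the same 55 were higher and 1 lower, with a median of 0.15. In the limma test of the difference between days, the effect was larger at 96 h for 2 of the 55 and smaller for 1. Over all genes tested, 3.05% differed between the days. The study named 17 muscle and heart genes as higher after silencing, a list chosen mainly on 48 h changes in the same experiment. That choice favours 48 h, so the list is no independent evidence of direction or of a change between the days. It held 8 higher and a median of 0.43 at 48 h, against 4 and 0.33 at 96 h. The thick filament and M-band list had 6 of 17 higher and all 17 above 0 (median 0.45). Its risers were the myosin heavy chains Myh7, of slow fibres, and Myh8, of perinatal fibres, the myosin-binding protein Mybpc1, the giant-protein relative Obsl1, and 2 proteins that assemble myosin, the chaperone Unc45b and the methyltransferase Smyd1. Myh8 read 14.15, 14.24 and 14.26 against 14.84, 14.62 and 14.49 (0.43 ± 0.10, adjusted p = 0.0492), with silenced replicate 1 highest. Mybpc1 read 8.69, 9.10 and 9.02 against 10.15, 9.75 and 9.33, a wider spread within the silenced group (0.81 ± 0.20, adjusted p = 0.0491).

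In the thin filament, 4 of 16 genes rose and the median was 0.31: the fast troponin Tnnt3, the pointed-end cap Tmod1, the actin-binding Xirp1 and cardiac actin, Actc1. Tnnt3 read 13.00, 13.21 and 13.23 against 13.85, 13.72 and 13.60 (0.58 ± 0.10, adjusted p = 0.0234). Actc1 had the smallest of these changes, 0.33 ± 0.08. At the Z-disc, 5 of 22 rose (median 0.31). Actn2, the α-actinin that crosslinks actin there, read 11.32, 11.69 and 11.66 against 12.87, 12.43 and 12.40 and doubled its signal (2.01-fold; 1.01 ± 0.15, adjusted p = 0.0152). Ldb3, Tcap, Synpo2 and Synpo2l, all Z-disc or actin-bundling proteins, rose by 0.60 to 0.66. Mypn, which links nebulin to α-actinin and was picked after its value was seen, differed by 0.95 ± 0.17 (adjusted p = 0.0234).

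**Figure D2:**
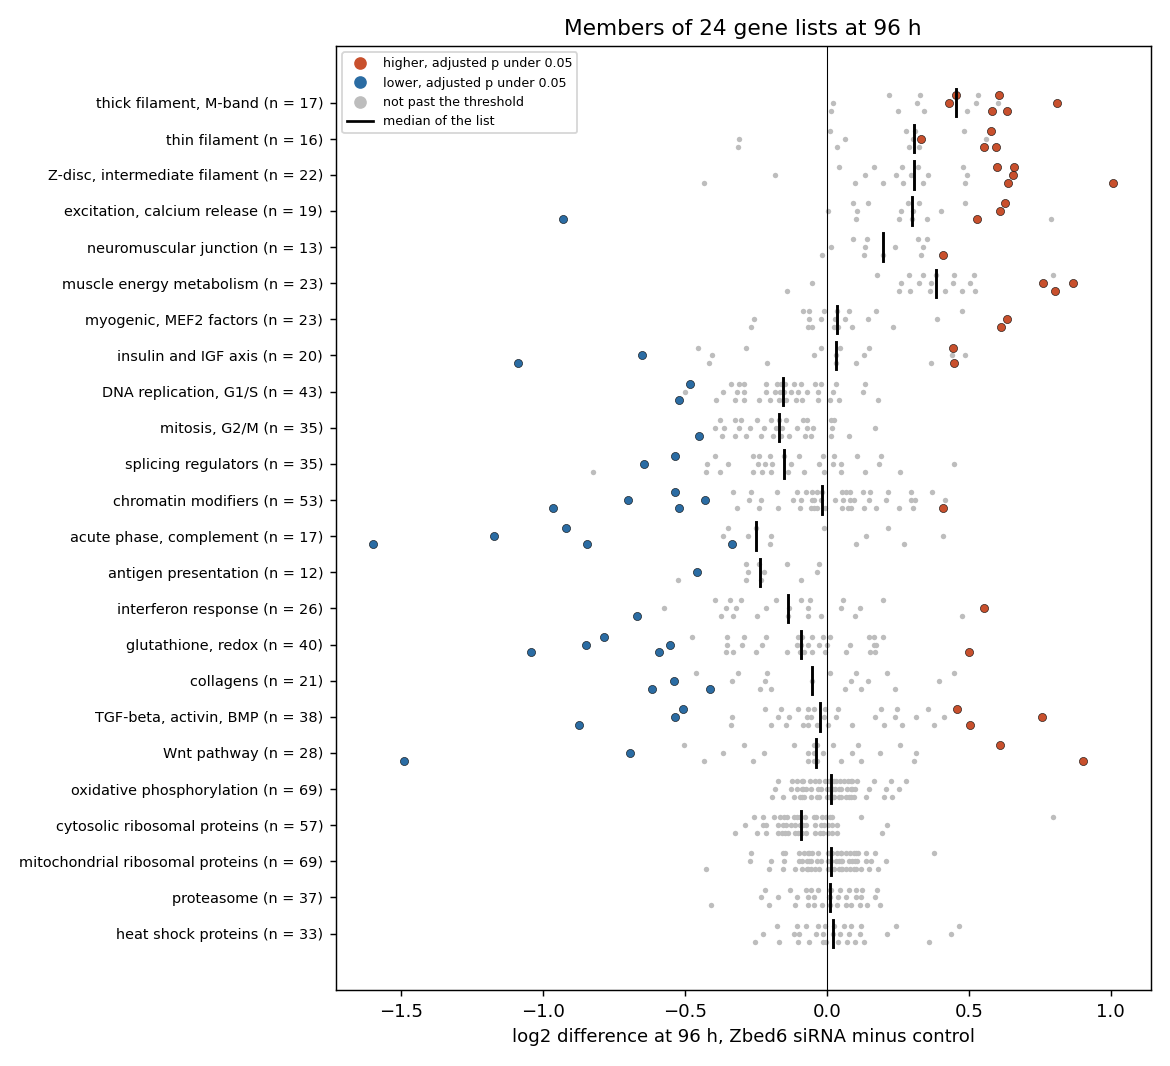
Log2 difference at 96 h for each measured member of 24 gene lists; red and blue points passed the threshold upwards and downwards, grey points did not, and the black bar is the median of the list. The sarcomere lists lie to the right (medians 0.45, 0.31 and 0.31), the cell cycle lists to the left (-0.15 and -0.17), and oxidative phosphorylation, ribosomal proteins and the proteasome hold no coloured point.

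Genes of calcium release leaned the same way. Of 19 measured genes of excitation and calcium handling, 3 rose and 1 fell, and 18 lay above 0 (median 0.30). That was 21.1% called, against 5.66% of all genes tested, of which 51.1% lay above 0. The risers were Casq1, the calcium store protein of fast fibres, Hrc, a histidine-rich protein of the sarcoplasmic reticulum, and Ryr1, the release channel. Ryr1 read 11.03, 11.17 and 11.10 against 11.83, 11.60 and 11.45 (0.53 ± 0.11, adjusted p = 0.0365). Cacna2d1, an auxiliary subunit of the voltage-gated calcium channel, went the other way, reading 8.39, 7.99 and 8.48 against 7.61, 7.39 and 7.07 (-0.93 ± 0.17, adjusted p = 0.0234). Among muscle energy genes 3 of 23 rose (13%) and 21 lay above 0 (median 0.39). Ckm, muscle creatine kinase, read 10.18, 10.44 and 10.47 against 11.36, 11.10 and 11.05 (0.81 ± 0.12, adjusted p = 0.015), and Pygm, muscle glycogen phosphorylase, and Art1, a surface ADP-ribosyltransferase, rose by 0.76 ± 0.15 and 0.87 ± 0.13. Of 13 neuromuscular junction genes, Ncam1 alone passed (0.41 ± 0.09), while 12 lay above 0 with a median of 0.20. The share called there, 7.69%, was near that of all genes. Dysf, the membrane repair protein dysferlin, rose by 0.73 ± 0.13, and Trim54, a ubiquitin ligase of the sarcomere, by 0.47 ± 0.10. The fusion and adhesion list itself was mixed, with Dysf and the laminin receptor Itga7 higher and the adhesion molecules Vcam1 and Cadm1 lower among 18 genes (22.2% called).

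Of 23 measured genes on the list of myogenic and MEF2 transcription factors, which drive these genes, 2 rose (8.7%, against 2.83% of all genes). They were Tead4 (0.62 ± 0.11) and the methyltransferase Smyd1, already counted with the thick filament, and the median of the list was 0.04. Another kept probe of Tead4 also passed (0.66 ± 0.10), while a further one read 0.06 ± 0.14 (adjusted p = 0.833, limma). Among 19 inhibitors of myogenic transcription, Id2, which sequesters E proteins, read 9.59, 9.23 and 9.37 against 8.59, 8.78 and 8.90 (-0.64 ± 0.12, adjusted p = 0.0278), and the repressor Zeb2 fell by 0.55 ± 0.12. A second kept probe of Id2 did not pass (-0.31 ± 0.11, adjusted p = 0.124, limma). Msc, the gene of the repressor musculin, rose instead (0.45 ± 0.10), so this list held 1 rise and 2 falls.

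Cell cycle genes leaned the other way, with few calls. Of 43 genes of DNA replication and the G1/S step, none rose and 2 fell, and 7 lay above 0 (median -0.15). The fallers were Ccne2, a cyclin that starts S phase, which read 7.01, 7.04 and 7.07 against 6.39, 6.64 and 6.53 (-0.52 ± 0.09, adjusted p = 0.0228), and Rfc4, a subunit of the clamp loader (-0.48 ± 0.10). Of 35 mitotic genes 1 fell, the spindle protein Nusap1 (-0.45 ± 0.09), and 6 lay above 0 (median -0.17). At 2.82% for falls over all genes tested, these counts are near the background. Cdkn1c, a CDK inhibitor that is imprinted and holds cells out of the cycle, read 10.26, 10.42 and 10.51 against 10.98, 11.05 and 11.27 (0.70 ± 0.11, adjusted p = 0.0156), and no other of 11 D cyclins, CDK inhibitors and pocket proteins passed.

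The muscle and cell cycle lists were not evenly spread over the arrays. Taken as the median deviation of the members from their mean over the 6 arrays, the sarcomere list stood at -0.33, -0.10 and -0.10 on the controls and at 0.31, 0.12 and 0.07 on the silenced arrays. The mitotic list stood at 0.23, -0.02 and 0.06 on the controls and at -0.29, -0.06 and 0.06 on the silenced arrays. Control replicate 1 was thus lowest for the sarcomere and highest for mitosis, silenced replicate 1 was the reverse, and the mitotic groups overlapped while the sarcomere groups did not. Without silenced replicate 1 the sarcomere median was 0.28 and 2 of its genes passed, and without control replicate 1 it was 0.26 and 0 passed. What set these arrays apart was not tested.

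**Figure D3:**
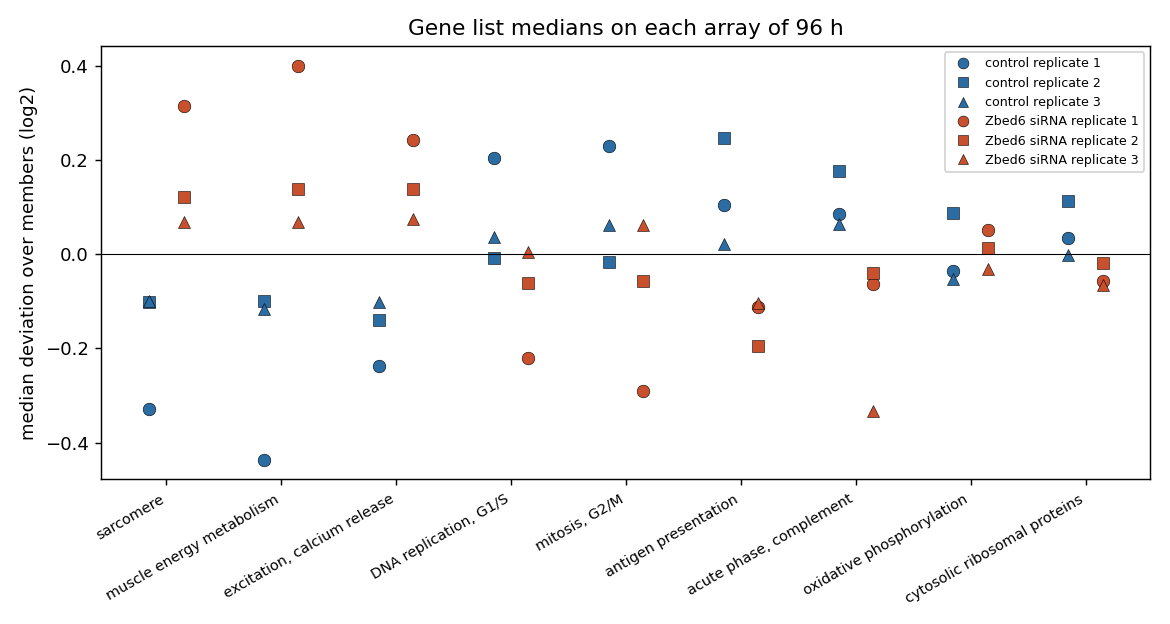
Median over the members of each gene list of the deviation of log2 signal from the member's mean over the 6 arrays of 96 h, by array (blue, control; red, Zbed6 siRNA; shape, replicate number). The sarcomere and energy lists separate the groups with replicates 1 farthest out, from -0.33 to 0.31 for the sarcomere, while the mitotic list overlaps.

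In the insulin and IGF axis the ligands moved apart. Igf1 read 9.12, 9.02 and 8.85 in the controls and 7.58, 7.95 and 8.19 after silencing, 2.13-fold lower with no overlap (-1.09 ± 0.15, adjusted p = 0.0123), against the 1.37-fold rise of Igf2. Igfbp4, a binding protein that holds IGFs away from the receptor, read 6.72, 6.77 and 6.82 against 6.04, 6.16 and 6.18 (-0.65 ± 0.08, adjusted p = 0.00939). A second kept probe of Igfbp4 did not pass (-0.27 ± 0.15, adjusted p = 0.305, limma). Pik3r2, a regulatory subunit of PI3 kinase, rose by 0.44 ± 0.11 (adjusted p = 0.0472). The other 16 of 20 measured members did not pass, and the median was 0.03. Igfbp4 stood at 0.47 above control at 48 h without passing the test, and its effect differed between the days by -1.12 ± 0.20 (adjusted p = 0.02).

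Other secreted signals and their receptors split in both directions. Among 35 growth factor ligands and receptor kinases, 3 rose and 3 fell. That was 17.1% called, against 5.66% of all genes tested. Fgfrl1, an FGF receptor without a kinase domain, read 8.70, 9.0 and 9.02 against 10.26, 9.82 and 9.88 (1.08 ± 0.14, adjusted p = 0.00939), and Fgfr1 and the ligand Pdgfb rose by 0.49 ± 0.11 and 0.39 ± 0.09. Gas6, the ligand of the TAM receptor kinases, read 9.32, 8.87 and 8.96 against 8.16, 8.18 and 8.35 (-0.82 ± 0.13, adjusted p = 0.0154), and Pdgfra and Bdnf fell by 0.61 ± 0.13 and 0.52 ± 0.10. Of 38 genes of TGF-beta, activin and BMP signalling, 3 rose and 3 fell (15.8% called). Bmp4 read 9.94, 9.42 and 9.42 against 8.43, 8.66 and 9.08 (-0.87 ± 0.19, adjusted p = 0.0379), while Gdf5, another BMP-family ligand, was higher by 0.76 ± 0.14. Tgfb2 fell and Tgfb3 rose by the same size (-0.51 ± 0.11 and 0.51 ± 0.11), and so did, in opposite directions, the BMP antagonists Grem1 and Chrd (-0.53 ± 0.10 and 0.46 ± 0.10). The Wnt list of 28 had 14.3% called. Its ligands Wnt4 (0.90 ± 0.12) and Wnt10a (0.61 ± 0.09) rose, but a second kept probe of Wnt4 read no such change (0.02 ± 0.20, adjusted p = 0.965). Sfrp2, a secreted Wnt antagonist, read 10.34, 9.38 and 9.87 against 8.02, 8.43 and 8.67 (-1.49 ± 0.24, adjusted p = 0.0182), and Ccn5, a matricellular protein induced by Wnt, fell by 0.69 ± 0.10. No gene of 18 in the Notch list passed.

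**Figure D4:**
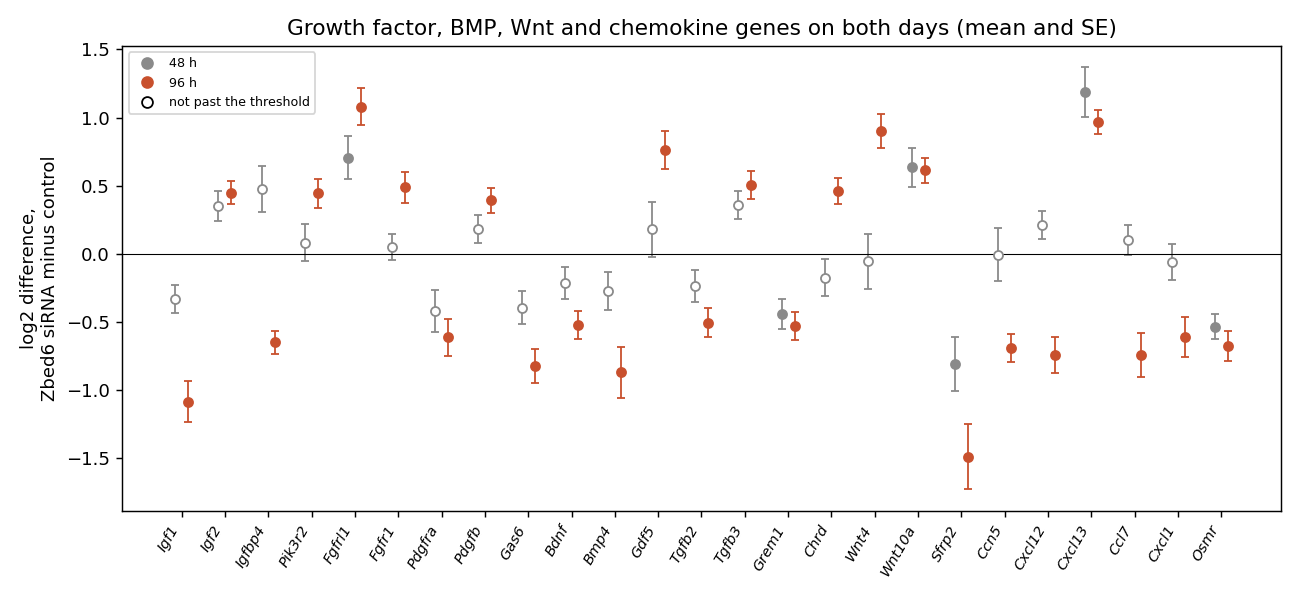
Log2 difference, Zbed6 siRNA minus control, with its SE (n = 3 per group) for 25 growth factor, BMP, Wnt and chemokine genes at 48 h (grey) and 96 h (red); open points did not pass the threshold. Igf1 and Sfrp2 lie lowest at 96 h (-1.09 and -1.49), and Fgfrl1 lies highest (1.08).

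Genes of innate defence passed in both directions, and falls gathered in the acute phase list. In the acute phase, complement and coagulation list 5 of 17 fell, none rose and 5 lay above 0 (median -0.25). That was 29.4% called, against 5.66% of all genes tested. Beside Lbp these were Kng1, the kininogen precursor of bradykinin (5.95, 6.56 and 6.58 against 5.10, 5.44 and 5.04, where 1 silenced array detected it), Cp, the copper oxidase ceruloplasmin (-0.84 ± 0.11), Clu, the chaperone clusterin, and Pros1, the cofactor protein S (-0.33 ± 0.08). A second kept probe of Kng1 did not pass (-0.16 ± 0.09, adjusted p = 0.323, limma). Clu was detected on 2 control arrays and on no silenced array, at least 1.37-fold lower (adjusted p = 0.0353). Of 12 antigen presentation genes, H2-T23, a nonclassical class I molecule, fell by 0.46 ± 0.09 and 0 lay above 0 (median -0.235). The interferon list of 26 held 1 rise, the GTPase Igtp (0.55 ± 0.12), and 1 fall, Oasl2 (-0.67 ± 0.13), with 7 above 0. The shares called in the antigen presentation and interferon lists, 8.33% and 7.69%, were near that of all genes. Chemokines and cytokines went both ways, with 2 rises and 3 falls among 17. Their share called, 29.4%, was the same as in the acute phase list. Cxcl13, which attracts B cells, read 6.87, 6.74 and 6.78 against 7.78, 7.84 and 7.68 (0.97 ± 0.09, adjusted p = 0.00386). Cxcl12, the ligand of Cxcr4, read 9.84, 9.45 and 9.54 against 8.67, 9.0 and 8.93 (-0.74 ± 0.13, adjusted p = 0.0228), and Ccl7 and Cxcl1 fell by 0.74 ± 0.16 and 0.61 ± 0.15. Il1b was detected on no control array and on 3 silenced arrays, at least 1.29-fold higher (adjusted p = 0.0258). The oncostatin M receptor gene Osmr fell by 0.68 ± 0.11.

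Several detoxifying enzymes fell. Of 40 glutathione, redox and metal defence genes 5 fell and 1 rose (median -0.09). That was 15% called, against 5.66% of all genes tested. Gpx3, the secreted glutathione peroxidase, read 9.81, 9.77 and 9.89 against 8.90, 8.64 and 8.80 (-1.04 ± 0.10, adjusted p = 0.00386). Mgst1, a membrane-bound transferase, read 8.15, 8.34 and 8.05 against 7.32, 7.54 and 7.13 (-0.85 ± 0.12, adjusted p = 0.0146). Gstm2 and Nqo1, a glutathione transferase and a quinone reductase, fell by 0.59 ± 0.08 and 0.55 ± 0.12, and Gstt3 was at least 1.53-fold lower, detected on no silenced array. For Gpx7, the riser, 1 silenced array and 0 control arrays gave detection (at least 1.08-fold higher). In amine and glutamate metabolism, Slc1a3 and Abat were lower while Gpt, alanine transaminase, and Ddc, which decarboxylates aromatic amino acids, were higher (0.57 ± 0.11 and 0.50 ± 0.11). These made up 22.2% of the 18 measured genes of that list. Car9, a carbonic anhydrase known as a hypoxia target, read 7.45, 7.37 and 7.54 against 6.42, 6.78 and 6.42 (-0.92 ± 0.12, adjusted p = 0.00939). Bnip3l, of the same list of 17, also fell (-0.39 ± 0.09), and none rose (11.8% called).

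Among 53 chromatin modifiers, 5 fell and 1 rose. That was 11.3% called, against 5.66% of all genes tested. Ezh2, the methyltransferase of the Polycomb repressive complex 2, read 8.38, 7.95 and 8.28 against 6.89, 7.53 and 7.30 (-0.97 ± 0.17, adjusted p = 0.0232), with silenced replicate 1 lowest. The second kept probe of Ezh2 did not show a fall (0.22 ± 0.16, adjusted p = 0.418), so the fall rests on 1 of its 2 probes. Hmgb2, a chromatin-bending protein, Smarca2, an ATPase of the SWI/SNF remodeller, Bmi1, of Polycomb complex 1, and the acetyltransferase Kat2b fell by 0.43 to 0.70, and the related Kat2a rose by 0.41 ± 0.09. Other kept probes of Smarca2 (-0.10 ± 0.13, adjusted p = 0.689, limma) and Kat2b (-0.34 ± 0.12, adjusted p = 0.136) did not pass. Splicing regulators had 2 falls among 35, Hnrnpa1 (-0.64 ± 0.15) and Rbm39 (-0.53 ± 0.09), with 10 above 0 (median -0.15). This share, 5.71%, was near the 5.66% of all genes tested. Hnrnpa1 has many processed copies in the genome, and its probe may also read those. A second kept probe of Hnrnpa1 did not pass (-0.02 ± 0.11, adjusted p = 0.923, limma).

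Matrix genes passed in small numbers, with falls and rises. Of 21 collagens, Col5a2, Col4a5 and Col14a1 fell (by 0.62 ± 0.13, 0.54 ± 0.11 and 0.41 ± 0.08) and none rose. That was 14.3% called, against 5.66% of all genes tested. In the list of 38 matrix glycoproteins and crosslinking enzymes, the fibulin Fbln7 (-0.83 ± 0.15) and the lysyl oxidase Lox (-0.49 ± 0.08) fell and the laminin Lama2 (0.50 ± 0.11) rose. This share, 7.89%, was near that of all genes. Of 25 matrix proteases and inhibitors 2 passed (8%), Mmp23 lower and Adamtsl2 higher. Adamtsl2, a secreted protein that binds fibrillin, read 6.86, 6.76 and 6.68 against 7.60, 7.60 and 7.46 (0.79 ± 0.09, adjusted p = 0.00782). Over the 10 fibroblast markers, the summed linear signal was 11030 to 11290 on the control arrays and 9240 to 9620 on the silenced arrays, and 1 of them, Pdgfra, passed; the part of other cells in the matrix result was not tested. In this bulk RNA, fewer cells of a type and less RNA per cell cannot be told apart.

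Cell surface and transport genes went both ways. Of 38 axon guidance genes 3 rose and none fell. This share, 7.89%, was near the 5.66% of all genes tested. Ephb1, an ephrin receptor, read 5.40, 5.32 and 5.34 against 6.53, 6.43 and 6.10 (1.0 ± 0.12, adjusted p = 0.00782), and the semaphorin Sema6b and the semaphorin receptor Plxnb1 rose by 0.59 ± 0.11 and 0.51 ± 0.11. Of 161 solute carriers 10 rose and 6 fell, a share of 9.94% against 5.66% of all genes tested. Among the risers were the neuronal amino acid transporter Slc6a17, detected on no control array (at least 1.38-fold higher), the choline transporter relative Slc44a4 (0.69) and the vitamin transporter Slc5a6 (0.67). Npr3, the clearance receptor for natriuretic peptides, read 7.78, 6.57 and 6.90 against 5.86, 6.07 and 6.02, with control replicate 1 well above the rest (-1.10 ± 0.26, adjusted p = 0.0454). Tceal5, an X-linked relative of elongation factor SII, read 8.29, 8.74 and 8.72 against 10.19, 9.93 and 9.53 (1.30 ± 0.18, adjusted p = 0.0123), while the related genes Tceal8 and Bex2 differed by -0.07 and -0.09. Itm2a, whose membrane protein appears in chondrogenic and myogenic differentiation, rose by 1.21 ± 0.22, and Itm2b, of the same family, differed by -0.11 (adjusted p = 0.398).

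Respiration, protein synthesis on the ribosome, folding and degradation held no call in the lists used. None of 69 genes of oxidative phosphorylation, 57 cytosolic and 69 mitochondrial ribosomal proteins, 37 proteasome genes, 33 heat shock genes or 26 genes of ER folding passed, 0 of 291 in all, against 5.66% of all genes tested. Oxidative phosphorylation ran from -0.19 to 0.28 with a median of 0.02. Cytosolic ribosomal proteins had a median of -0.09 with 12 of 57 above 0, and 10 reference genes a median of -0.15 with none past the threshold. At 48 h the same 291 genes held 14 higher and 1 lower. Glycolysis, autophagy, apoptosis and tRNA synthetase lists (18, 25, 21 and 18 genes) were also without a call at 96 h. Related lists did hold calls: of 44 nucleolus and ribosome biogenesis genes Heatr1 was higher (0.34) and Tcof1 lower (-0.59), of 40 genes of the TCA cycle and fatty acid oxidation Crat was higher (0.58), and 3 of 40 translation factors were called higher, among them the poly(A)-binding protein Pabpc4 (0.57). Eif3b, also among them (0.50), turned to -0.01 when its probes were averaged. Other kept probes of Crat did not pass in limma (0.28 ± 0.17, adjusted p = 0.34, and -0.04 ± 0.14, adjusted p = 0.894). Nor did a second probe of Pabpc4 (0.23 ± 0.14, adjusted p = 0.344).

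For 3 genes, probes passed the threshold in opposite directions: Cdk11b (0.33 and -0.53), Epn2 (-0.44 and 0.51) and Sptbn1 (0.41 and -0.36), so no direction is given for them. When the kept probes of a gene were averaged, the calls of Ryr1, Ncam1, Nusap1, Wnt4, Bdnf, Ezh2, Smarca2, Kat2b and Hnrnpa1 were also lost. Of 150 called genes with several kept probes, 129 had every other probe on the same side of 0. Only 54 had another probe called in the same direction.

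Of the 501 genes called at 96 h, 93 were also called at 48 h (18.6% of the 96 h calls and 14% of the 665 at 48 h, where 7.51% of genes passed, 297 higher, 3.35%, and 368 lower, 4.15%), 92 of them in the same direction. The days do not share control arrays. In a fit of all 12 arrays, the effect differed between the days for 270 genes (3.05% of those tested) and 384 probes (2.93%). The effect at 96 h was above that at 48 h for 146 of the genes (1.65%) and below it for 124 (1.4%), and 80 of the 270 were called at 96 h. Of all 501 genes called at 96 h, 367 (73.3%) had the same sign at 48 h, against 55.7% of all genes tested. Among the 80, which were chosen for a difference between the days, 66 had the opposite sign at 48 h and 77 were not called there. Lbp differed by -0.02 at 48 h and -1.60 at 96 h (difference of effects adjusted p = 0.0281), Klf6 by -0.22 and -1.45 (adjusted p = 0.0159), and Padi2 by 0.30 and 1.29 (adjusted p = 0.02). Tceal5 (1.29 and 1.30) and Abat (-1.03 and -1.07) had effects of like size on the days, with differences of 0.01 ± 0.25 and -0.04 ± 0.16. Most of the 12 genes with the smallest p of the difference had their larger change at 48 h. Among them were the iron exporter Slc40a1 (1.41 and -0.03), Tex14 (1.78 and 0.15), Mc4r (1.54 and 0.34), Lpl (0.98 and -0.06), Col18a1 (-0.99 and 0.09) and Bsg (-0.98 and -0.11).

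**Figure D5:**
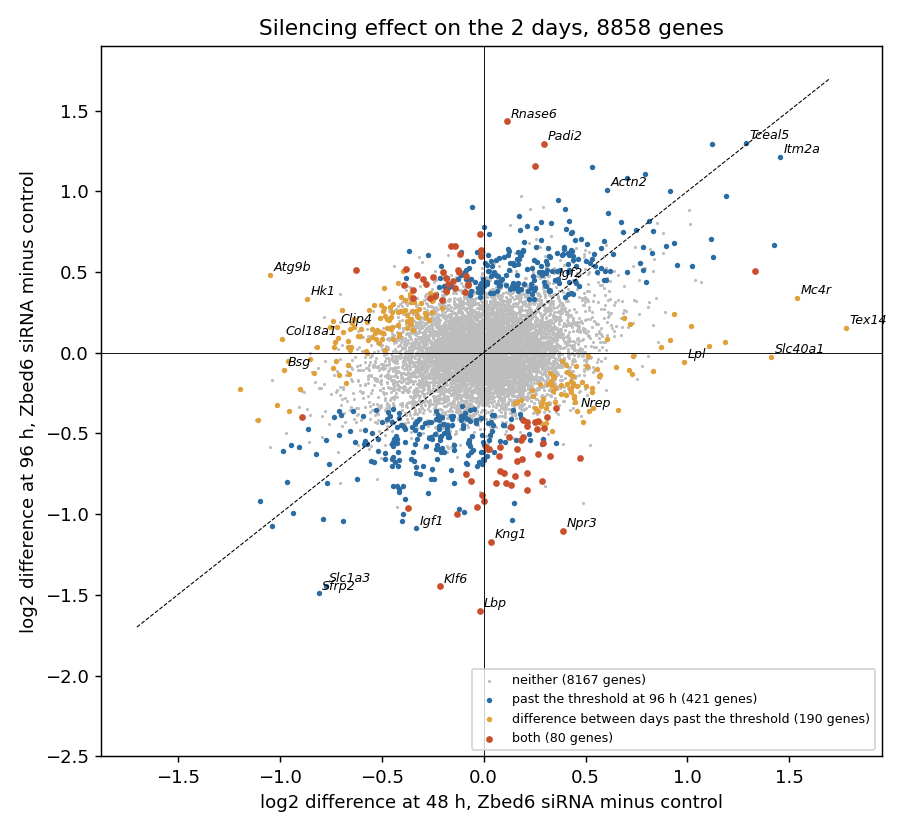
Log2 difference at 48 h (x axis) and 96 h (y axis) for 8858 genes, each point 1 gene; blue genes passed the threshold at 96 h, orange genes passed the test of the difference between days, red genes passed both, and the dashed line marks equal effects. Of all 501 genes called at 96 h, 73.3% have the same sign on both days, while 66 of the 80 red genes, chosen for a difference, have opposite signs, and Tceal5 (1.29 and 1.30) lies on the line.

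Promoters are shown for the genes whose 96 h change can be read beside the ZBED6 core, as a description of their letters. They are RefSeq windows on GRCm38.p6, from 250 bases before to 50 after the start of the gene, read 5′ to 3′ on the gene's strand. The core GCTCG, on either strand, is in capitals. Ppm1e, a PP2C-family phosphatase that rose by 1.11 ± 0.12 (5.92, 6.10 and 6.13 against 7.35, 7.18 and 6.94), holds 2 overlapping matches (chr11:87358945-87359244, minus strand), Igsf11, an adhesion protein that rose by 0.70 ± 0.10, holds 4 (chr16:38902095-38902394, plus strand), and Sfrp2, which fell, holds 1 (chr3:83766071-83766370, plus strand). These are 3 of the 4 genes called at 96 h among 21 measured genes that the study listed with conserved ZBED6 sites. The study took them from genes it found changed by sequencing RNA of the same siRNA experiment, so that list is no independent evidence of direction. The remaining gene is Igf2, with a match in 1 of its 4 windows (chr7:142658755-142659054, minus strand). The motifs that the study lists for Ppm1e and Igsf11 lie within their windows. For Sfrp2 and Igf2 the letters around the match differ from the listed motif, so the capitals there do not mark the study's conserved site.
Ppm1e: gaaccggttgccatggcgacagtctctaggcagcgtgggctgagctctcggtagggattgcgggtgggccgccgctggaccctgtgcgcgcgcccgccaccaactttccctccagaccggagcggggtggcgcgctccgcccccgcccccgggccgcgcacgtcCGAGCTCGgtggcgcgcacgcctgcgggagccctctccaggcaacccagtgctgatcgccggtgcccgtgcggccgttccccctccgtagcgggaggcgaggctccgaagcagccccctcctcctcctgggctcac
Igsf11: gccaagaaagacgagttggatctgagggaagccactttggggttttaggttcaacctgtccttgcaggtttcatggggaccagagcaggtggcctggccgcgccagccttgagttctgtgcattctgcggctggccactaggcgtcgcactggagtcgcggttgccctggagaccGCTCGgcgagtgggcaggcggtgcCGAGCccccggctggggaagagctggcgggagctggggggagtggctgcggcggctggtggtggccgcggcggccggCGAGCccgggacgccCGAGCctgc
Sfrp2: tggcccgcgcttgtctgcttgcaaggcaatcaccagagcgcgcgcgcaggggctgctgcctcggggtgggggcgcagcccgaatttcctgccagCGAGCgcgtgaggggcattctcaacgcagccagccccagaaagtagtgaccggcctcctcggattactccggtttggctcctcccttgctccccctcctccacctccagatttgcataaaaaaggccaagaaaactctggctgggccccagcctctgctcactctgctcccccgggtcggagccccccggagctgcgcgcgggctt
Igf2: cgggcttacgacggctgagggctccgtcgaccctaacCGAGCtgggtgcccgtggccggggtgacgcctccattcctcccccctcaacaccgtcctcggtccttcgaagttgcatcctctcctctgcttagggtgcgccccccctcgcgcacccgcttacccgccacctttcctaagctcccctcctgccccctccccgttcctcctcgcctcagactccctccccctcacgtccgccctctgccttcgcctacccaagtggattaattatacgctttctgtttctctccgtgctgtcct

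Padi2 and Klf6, with the lowest adjusted p among the rises and the falls, are shown beside them. Padi2 (chr4:140906110-140906409, plus strand) and Klf6 (chr13:5861239-5861538, plus strand) hold 3 and 2 matches.
Padi2: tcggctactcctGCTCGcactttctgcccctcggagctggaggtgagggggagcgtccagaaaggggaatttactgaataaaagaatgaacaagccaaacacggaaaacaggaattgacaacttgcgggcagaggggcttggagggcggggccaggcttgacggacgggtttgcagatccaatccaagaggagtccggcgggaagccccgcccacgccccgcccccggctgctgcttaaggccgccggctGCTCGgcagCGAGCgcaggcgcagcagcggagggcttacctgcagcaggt
Klf6: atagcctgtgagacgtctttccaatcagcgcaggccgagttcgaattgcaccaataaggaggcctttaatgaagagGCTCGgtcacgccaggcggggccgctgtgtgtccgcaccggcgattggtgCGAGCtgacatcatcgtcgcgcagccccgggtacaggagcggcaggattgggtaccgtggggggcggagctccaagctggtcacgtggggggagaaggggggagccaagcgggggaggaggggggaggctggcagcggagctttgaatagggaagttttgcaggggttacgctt
A window with the core was common: 29.8% of all 32851 RefSeq windows, 47.5% of those of the genes tested, 43% of those of genes that rose and 40.1% of those of genes that fell. A promoter was matched for 7223 of the 8858 genes.

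For the sarcomere genes the windows were searched for the MEF2 motif, by which MEF2 factors bind muscle promoters, on both strands. It was found in 3.19% of all windows, 1.76% of those of the genes tested, 4.04% of those of genes that rose and 8 of the 57 of the measured sarcomere genes (14%), which were 47 of 55 with a window. Synpo2 (chr3:123236100-123236399, minus strand) and Myh8 (chr11:67276874-67277173, plus strand), both among the 15 risers, are shown with the match in capitals. Synpo2 read 7.37, 7.67 and 7.54 against 8.27, 8.04 and 8.25.
Synpo2: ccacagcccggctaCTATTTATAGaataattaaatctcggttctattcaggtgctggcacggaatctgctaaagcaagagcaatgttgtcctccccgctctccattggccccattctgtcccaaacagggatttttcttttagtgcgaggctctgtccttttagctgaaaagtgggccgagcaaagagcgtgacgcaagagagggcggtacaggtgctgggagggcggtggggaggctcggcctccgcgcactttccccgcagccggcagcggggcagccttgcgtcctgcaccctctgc
Myh8: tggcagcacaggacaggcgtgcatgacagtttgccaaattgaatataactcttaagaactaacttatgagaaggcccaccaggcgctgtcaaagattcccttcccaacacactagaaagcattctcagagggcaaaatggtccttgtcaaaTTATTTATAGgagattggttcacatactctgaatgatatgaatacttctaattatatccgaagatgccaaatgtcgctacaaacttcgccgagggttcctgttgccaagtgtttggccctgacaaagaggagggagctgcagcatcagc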

How the data were processed

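Expression was measured on 12 Illumina MouseRef-8 arrays. The authors deposited, per the file headers, a non-normalized intensity and a detection p-value for each probe and array, and a table of processed log2 values, made per the labels with the lumi package, which also serves as an alternative below. Slide and scan are not given in the sources used here. The intensities were background corrected and quantile normalized over the 12 arrays with neqc of limma 3.58.1 in R 4.3.3 (offset 16, log2 scale), and a probe was kept where 3 or more of the 12 arrays had a detection p under 0.05. A limma fit on the 6 arrays of 96 h compared the groups, with Benjamini-Hochberg adjustment over all 13095 kept probes and a threshold of 0.05. A fit of all 12 arrays tested the difference between days. A gene was read from its brightest kept probe. Named genes were Zc3h11a and Igf2, the 12 largest rises and 12 largest falls, up to 5 members of each list with the smallest p and every member past the threshold, 6 genes per direction for the difference between days, genes with probes in opposite directions, and 5 probes without a symbol. Members, lists and rules were chosen with earlier results of these data known. The fit was tested on simulated data. The number of arrays limits the precision. Replicate numbers did not pair the samples (correlations of deviations -0.168, -0.0474 and 0.0913). Alternatives covered the values, background, normalization, filter, probes, samples in the fit, variance prior, replicate block and each array left out.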

Additional observations from a re-analysis of the deposited data

Results flagged for a closer look

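The silencing effect differed between 96 h and 48 h for 270 genes in the limma fit of all 12 arrays. Among the named genes, the effect at 96 h exceeded that at 48 h on the log2 scale for Atg9b by 1.53, Rnase6 by 1.32, Hk1 by 1.2, Col18a1 by 1.07, Padi2 by 1, Upk1b by 0.904, Clip4 by 0.88, Bsg by 0.873, Slc4a3 by 0.811, Synpo2 by 0.797, Casq1 by 0.725, Eif3b by 0.699, Lama2 by 0.621, Xirp1 by 0.61, Heatr1 by 0.601, Pxn by 0.589, Lims2 by 0.561 and Cdk11b by 0.529. It was below that at 48 h for Zfp131 at -0.599, Tcof1 at -0.622, Bmi1 at -0.643, Lims1 at -0.723, Nrep at -0.821, Ddc at -0.828, Ccl7 at -0.842, Car9 at -0.917, Cxcl12 at -0.955, Hnrnpa1 at -0.967, Lpl at -1.04, Mgst1 at -1.06, Igfbp4 at -1.12, Mc4r at -1.2, Kng1 at -1.21, Klf6 at -1.23, Slc40a1 at -1.44, Npr3 at -1.49, Lbp at -1.58 and Tex14 at -1.63. Eif3b and Cdk11b have probes that do not run the same way, and Hnrnpa1 has near-identical copies.

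Of 763 kept probes without a gene symbol, 53 passed the threshold at 96 h, 29 higher and 24 lower. The 5 with the smallest p differed by -0.82, -0.87, -0.55, 0.63 and -0.53, each with groups that did not overlap.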

How the results depend on the processing

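With no background correction, 527 genes were higher and 486 lower (1482 probes, 29 sarcomere genes higher). An offset of 50 gave 494 and 462 (1412 probes, 28 sarcomere genes), and a mean-variance trend 553 and 531 (1564 probes, 32 sarcomere genes). Without a filter, 132 were higher and 145 lower (397 probes, 7 sarcomere genes). The replicate numbers did not pair the samples, and the replicate block gave 94 and 133 (353 probes, 7 sarcomere genes). Leaving out 1 array gave 17 to 160 genes higher, 30 to 150 lower, 72 to 463 probes and 0 to 10 sarcomere genes higher, lowest without control replicate 1 and highest without silenced replicate 3. Median scaling gave 61.8% of calls higher against 50.1%, and the brightest probe alone 605 calls. The sarcomere median ran from 0.2603 to 0.3751 over all alternatives. Genes differing between days numbered 578 with the processed values of the authors, 88 with median scaling, 63 with a replicate block within each day and 44 to 239 without 1 array. Signs turned for Slc40a1 (0.01558 with median scaling, -0.08979 to 0.01381 without 1 array), Bsg (0.07204 without a filter) and, with probes averaged, Actb (0.3874), Dnajb6 (-0.05132), Eif3b (-0.01365), Csnk1d (-0.007654) and Cdk11b (-0.101). Without 1 array they turned for Lpl (-0.1466 to 0.04433), Bex2 (-0.2607 to 0.07931) and Nedd4 (-0.02519 to 0.4312). Of these, Eif3b and Cdk11b had passed the threshold. The causes were not tested. Of 170 named called genes, 50 passed under every processing alternative. Signs did not change for all 501 called genes under left-out arrays, but their groups do not overlap, which fixes that. Dim probes limit the sizes, since 31 called genes were undetected on all arrays of 1 group.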

Other observations

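These groups were chosen after their values were seen and carry no test as groups. Of 13 measured genes of the histone H2A cluster, which supply H2A to newly made DNA, 4 fell and 10 lay below 0 (median -0.53). H2ac7 read 12.77, 12.75 and 12.76 in the controls and 11.66, 12.05 and 12.33 after silencing (-0.74 ± 0.15, adjusted p = 0.0338, limma), with silenced replicate 1 lowest. These genes are near-identical copies, so a probe may read several of them. Over all 38 measured replication-dependent histone genes, 1 rose, 4 fell and the median was 0.07.

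Of 10 genes of lipopolysaccharide recognition, 3 fell and none rose: Lbp, Cd14, the co-receptor that takes up the ligand of Lbp (-0.56 ± 0.11), and Tril, an accessory of Toll-like receptors (-0.72 ± 0.18). Of 15 limb-girdle dystrophy genes, 3 rose, Dysf, Tcap and the muscle calpain Capn3 (0.69 ± 0.14), and 13 lay above 0 (median 0.23).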
